A study of Mus musculus with 4 samples.

Results

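Neurexins are presynaptic adhesion receptors that hold the terminal to the postsynaptic side by binding neuroligins, LRRTM proteins, cerebellins and other ligands. Neurexophilins are small secreted glycoproteins that bind the extracellular part of alpha-neurexins. The contactin-associated proteins (CNTNAP, or Caspr, proteins) have an extracellular region built much like that of the neurexins; Cntnap1 sits with contactin at the paranodal junction between axon and myelin, Cntnap2 gathers voltage-gated potassium channels next to that junction, and Cntnap4 and the Cntnap5 genes are neuronal adhesion molecules. The values below are those of 9 such genes out of 31053 gene rows: the neurexins Nrxn2 and Nrxn3, the neurexophilin Nxph1, and Cntnap1, Cntnap2, Cntnap4, Cntnap5a, Cntnap5b and Cntnap5c. The genes were picked by symbol with earlier results of these libraries known, a lower Cntnap4 count in Csf1r+/- endothelial nuclei among them, so their levels and genotype contrasts are a description and not independent support for any pattern.

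Single nuclei were sequenced from whole brains of 2-month-old female C57/BL6 mice by droplet RNA sequencing, in 2 wild-type libraries (WT1 and WT2) and 2 libraries of untreated Csf1r+/- mice (HET1 and HET2), 1 mouse each. Csf1r encodes the growth factor receptor on which microglia depend, a Csf1r+/- mouse lacks 1 of its alleles in every cell, and the study compared the genotypes to learn how less of this receptor alters microglia and the cells around them before symptoms. Nuclei were prepared from perfused brains without detergent, and myelin was depleted with magnetic beads. A total of 52132 nuclei passed the filters (9589 to 16114 per library, with a median of 4636 to 7454 unique molecular identifiers, UMIs), and 33 to 68 barcodes were shared by any pair of libraries. Csf1r itself stood at 734 and 858 UMIs per 1000000 UMIs of its class (CPM) in WT microglia and at 553 and 525 CPM in HET microglia, lower in both HET libraries, with a log2 fold change of -0.63 (SE 0.21, edgeR adjusted p = 0.329).

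Nuclei were clustered without using the 9 genes, and clusters were named from marker genes, so each class or subtype name below means nuclei like that type. There were 26756 excitatory, 8259 inhibitory and 9394 other neuronal nuclei, 2378 oligodendrocytes, 697 microglia, 568 endothelial nuclei, 220 mural nuclei and 161 oligodendrocyte precursors. Microglia showed all 9 of their markers, oligodendrocytes all 7 and endothelial nuclei all 8, whereas no cluster could be named astrocytes. Mural nuclei, which hold pericytes and vascular smooth muscle, also carried the endothelial markers at 5371 to 7467 CPM in sum and are used here only for levels. Pan-neuronal marker RNA was counted in every glial and vascular class: the 7 pan-neuronal markers summed to 17199 to 18792 CPM in excitatory and inhibitory neurons, 2313 to 5662 CPM in oligodendrocytes, 2131 to 5832 CPM in microglia and 7409 to 12316 CPM in endothelial nuclei.

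All 9 genes lie on the plus strand (mm10, GENCODE annotation), and all but Cntnap1 are long. Nrxn2 spans chr19:6418731-6544169 and Nrxn3 chr12:88722876-90334935. Nxph1 spans chr6:8948431-9249032. Cntnap1 covers only 20.2 kb at chr11:101170523-101190724, whereas Cntnap2 covers 2245 kb at chr6:45059357-47304213. Cntnap4 lies at chr8:112570043-112882717, Cntnap5a and Cntnap5b share chromosome 1 at chr1:115684756-116587323 and chr1:99772765-100485942, and Cntnap5c lies at chr17:57769570-58410355. Genes on the minus strand overlap 4 of them: Gm14964 and Slc22a12 in Nrxn2, Plekhh3 and Ccr10 in Cntnap1, Gm45904 at the end of Cntnap4 and a ribosomal protein pseudogene in Cntnap5c. Whether the counting used the strand is not given in the sources used here, so reads of these partners may stand in the members' counts.

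Promoter windows (GRCm38.p6, from 250 bases before to 50 after a start annotated in RefSeq) were at hand for 4 of the 9 members. For Nxph1, whose level differed most between neuron subtypes, and Cntnap2, the longest of the genes, 1 window each is shown, with each GC box (GGGCGG on either strand) in capitals. The Nxph1 window is chr6:8949769-8950068 and the Cntnap2 window chr6:45059811-45060110, both read on the plus strand. Both lie inside the GENCODE spans given above, past the first base of the gene, 8948431 for Nxph1 and 45059357 for Cntnap2.
Nxph1: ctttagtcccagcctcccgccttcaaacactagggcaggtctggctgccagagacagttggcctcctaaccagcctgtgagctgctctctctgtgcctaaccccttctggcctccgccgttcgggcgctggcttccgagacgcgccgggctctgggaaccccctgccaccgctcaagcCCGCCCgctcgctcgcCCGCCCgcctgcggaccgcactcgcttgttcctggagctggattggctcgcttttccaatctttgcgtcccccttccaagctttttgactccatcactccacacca
Cntnap2: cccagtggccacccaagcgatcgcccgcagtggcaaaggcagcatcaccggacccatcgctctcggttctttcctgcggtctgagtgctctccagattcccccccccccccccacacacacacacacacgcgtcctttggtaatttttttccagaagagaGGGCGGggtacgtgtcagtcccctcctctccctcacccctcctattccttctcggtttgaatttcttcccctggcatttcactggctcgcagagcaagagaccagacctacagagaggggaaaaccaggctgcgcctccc
The Nxph1 window held 2 GC boxes, 21 CpG and 64.0% G and C, and the Cntnap2 window 1 GC box, 14 CpG and 59.7%. A GC box was present in 35.7% of 32851 windows of the same length. The E-box CANNTG, searched on both strands and present in 72.3% of all windows, was found once in the Nxph1 window and not in the Cntnap2 window. The CCAAT box (37.4% of windows) occurred 2 times in Nxph1, and TATAAA (13.6% of windows) in neither. Another Cntnap2 window, at chr6:47244146-47244445, is not shown and held 0 GC boxes, 1 E-box, 2 CCAAT boxes, 3 CpG and 46.3% G and C. These matches describe letters only.

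**Figure D1:**
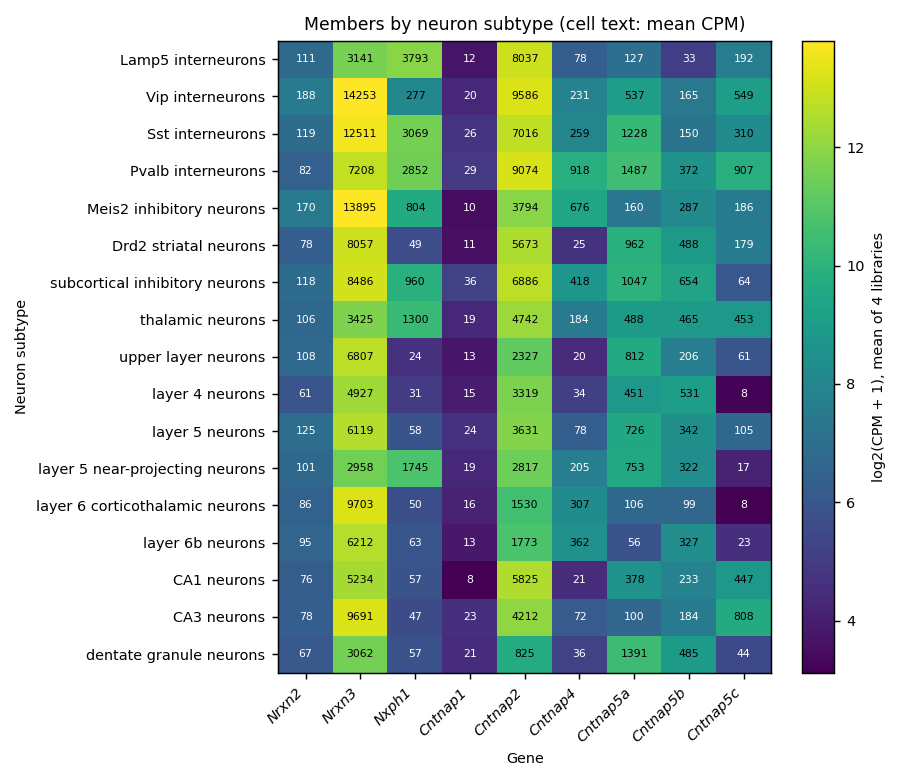
Mean CPM over 4 libraries of the 9 genes (columns) in 17 neuron subtypes (rows), coloured by log2(CPM + 1). Nxph1 and Cntnap5c span the widest range of levels between subtypes, from 24.2 to 3793 CPM and from 7.68 to 907 CPM.

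Both neurexins were found in every one of 17 neuron subtypes, and both were highest in Vip interneurons, the inhibitory cells that mainly contact other interneurons, and in Meis2 inhibitory neurons. Nrxn3 stood at 14253 CPM in Vip interneurons (mean of 4 libraries, range 12872 to 15764) and at 13895 CPM in Meis2 neurons (13291 to 14807), and these ranges overlapped. Sst interneurons followed at 12511 CPM (11506 to 13108), apart from Meis2 neurons and from the subtype below but overlapping Vip interneurons. Among excitatory neurons Nrxn3 was highest in layer 6 corticothalamic and CA3 neurons, at 9703 and 9691 CPM. Its lowest levels, 2958 CPM in layer 5 near-projecting neurons, 3062 CPM in dentate granule neurons and 3141 CPM in Lamp5 interneurons, overlapped one another. Among interneurons of the cortex Nrxn3 thus differed 4.54-fold, Vip against Lamp5.

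Nrxn2 was the flatter of the neurexins. It stood at 188 CPM in Vip interneurons (177 to 218) and 169.8 CPM in Meis2 neurons (148 to 202), apart from layer 5 neurons at 125 CPM (106 to 145). From layer 5 neurons down to layer 4 neurons, the lowest at 60.6 CPM (51.2 to 70.0), each subtype overlapped its neighbour in the order.

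Nxph1, the secreted neurexin ligand, separated the neuron subtypes most. It stood at 3793 CPM in Lamp5 interneurons (3652 to 4152), at 3069 CPM in Sst interneurons (2758 to 3333) and at 2852 CPM in Pvalb interneurons (2695 to 3284), of which the latter pair overlapped. In Vip interneurons it was only 277 CPM (195 to 441), so that interneurons of the cortex split into 3 subtypes with much Nxph1 and 1 with little. Excitatory cells of a few kinds also carried it: layer 5 near-projecting neurons at 1745 CPM (1571 to 2050.4) and thalamic neurons at 1299.7 CPM (1218 to 1361). The thalamic nuclei were counted with the other neuronal nuclei and are not part of the class of excitatory neurons used below. Subcortical inhibitory neurons had 959.7 CPM and Meis2 neurons 804 CPM, with overlapping ranges. Below Vip, the other 9 subtypes lay between 24.2 CPM in upper layer neurons and 62.8 CPM in layer 6b neurons, each overlapping the next.

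**Figure D2:**
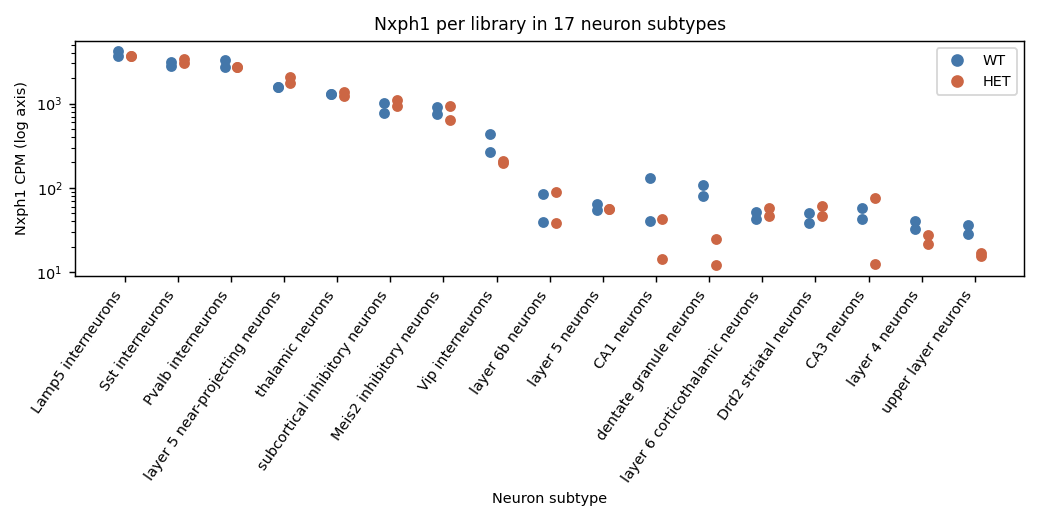
Nxph1 CPM (log axis) in each library for 17 neuron subtypes, ordered by mean level; blue points are WT and orange points HET libraries. All 4 libraries of Lamp5, Sst and Pvalb interneurons lie at 2695 CPM or above, and the points of the 9 lowest subtypes lie between 12.1 and 131 CPM.

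Among the CNTNAP genes, Cntnap2, the gene of the juxtaparanodal adhesion complex, was high in all cortical interneurons: 9586 CPM in Vip (7523 to 10946), 9074 CPM in Pvalb (8274 to 9921), 8037 CPM in Lamp5 and 7016 CPM in Sst neurons, each overlapping the next. It was lowest in dentate granule neurons at 825 CPM (608 to 1072) and next in layer 6 corticothalamic neurons at 1530.4 CPM (1369 to 1759), which did not overlap. Cntnap1, the paranodal gene, was sparse throughout, from 7.90 CPM in CA1 neurons (4.93 to 10.7) to 35.7 CPM in subcortical inhibitory neurons (28.2 to 41.7), and Pvalb interneurons, which have fast-conducting myelinated axons, came second at 29.1 CPM (26.2 to 35.1). Cntnap4 was highest in Pvalb interneurons at 918 CPM (793 to 1084) and Meis2 neurons at 676 CPM (433 to 874), whose ranges overlapped, and lowest in upper layer neurons at 20.1 CPM (15.9 to 25.6). Layer 6b and layer 6 corticothalamic neurons, at 362 and 307 CPM, held more Cntnap4 than layer 4 neurons at 34.1 CPM in every library.

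The 3 Cntnap5 genes did not share a subtype order. Cntnap5a was highest in Pvalb interneurons at 1487 CPM (1379.9 to 1553), dentate granule neurons at 1391 CPM (1130.1 to 1529.8) and Sst interneurons at 1228 CPM (1161 to 1315), and lowest in layer 6b neurons at 56.1 CPM (42.2 to 81.8). Cntnap5b was highest in subcortical inhibitory neurons at 654 CPM (606 to 727), overlapping layer 4 neurons at 531 CPM (347 to 702), and lowest in Lamp5 interneurons at 32.9 CPM (11.6 to 46.8). Cntnap5c was highest in Pvalb interneurons at 907 CPM (829 to 1111) and CA3 neurons at 808 CPM (567 to 957). Among excitatory neurons of the cortex Cntnap5c was 105 CPM in layer 5, 60.9 CPM in upper layer, 23.2 CPM in layer 6b, 17.3 CPM in layer 5 near-projecting, 8.37 CPM in layer 4 and 7.68 CPM in layer 6 corticothalamic neurons, so that both kinds of layer 5 neurons differed (69.8 to 158 against 9.07 to 27.6 CPM). In the hippocampus the genes differed in their order of fields: Cntnap5a was 1391 CPM in dentate granule, 378 CPM in CA1 and 99.7 CPM in CA3 neurons, and Cntnap5b was 485, 233 and 184 CPM, whereas Cntnap5c was 43.7, 447 and 808 CPM. For Cntnap5b the CA1 and CA3 ranges overlapped (158 to 326 and 101 to 245 CPM).

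Across 49 neuronal clusters (log2(CPM + 1), all 4 libraries pooled, clusters sharing libraries and ranging in depth), the members' patterns were only loosely alike. The closest pair was Cntnap2 and Cntnap5c (Pearson r = 0.60), followed by Cntnap5a and Cntnap5b (r = 0.57) and Nxph1 and Cntnap4 (r = 0.56). Nrxn3 and Cntnap5a were furthest apart (r = -0.17). Of 8761 genes with a mean of at least 10 CPM, those closest to Nxph1 were Kcnip1, a potassium channel-interacting protein (r = 0.86), Frg1 (r = 0.83) and the transcription factor Klf12 (r = 0.83). The gene closest to Cntnap4 was Gm45904 (r = 0.84), the minus-strand transcript that overlaps the end of Cntnap4 by 2258 bases, before Elavl2 and Dzip3 (both 0.65). Closest to Cntnap5c were Snrpn and Arhgef6 (both 0.77) and Daam1 (0.74). Cntnap1 was closest to Sod2 (0.78), Zfp398 (0.76) and Hspa4l (0.74), and Cntnap2 to Btbd11 (0.69), Gm37768 and Maf (both 0.67). Nrxn2 came closest to Ccar1 (0.71), Wdr6 and Cep170 (both 0.69), and Nrxn3 to 9630028H03Rik (0.56), Ripor2 and Ugcg (both 0.53). Ccdc85a led for both Cntnap5a (0.68) and Cntnap5b (0.63), followed by Gm16894 (0.65) and Brsk1 (0.62) for the former and by Ncam2 (0.58) and Cntnap5a itself (0.57) for the latter. These are descriptions across clusters, which are not independent replicates.

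**Figure D3:**
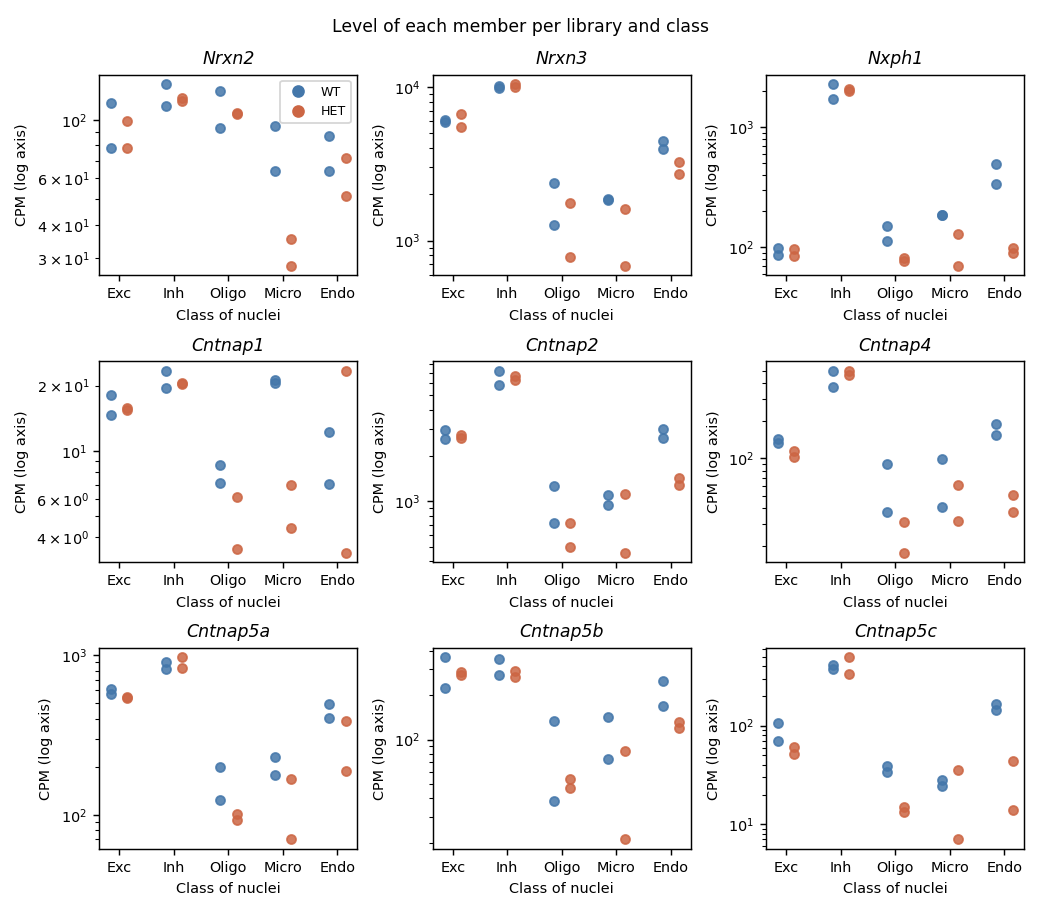
CPM (log axis) of each gene in excitatory (Exc) and inhibitory (Inh) neurons, oligodendrocytes (Oligo), microglia (Micro) and endothelial nuclei (Endo), 1 point per library, WT blue and HET orange. Nxph1 was 1730.2 to 2309 CPM in inhibitory neurons and at most 99.0 CPM in excitatory neurons, a class that leaves out the thalamic nuclei. In endothelial nuclei its 2 HET points, 88.5 and 98.1 CPM, lie below the WT points at 336 and 491 CPM.

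Outside neurons, with libraries summed, most of the 9 genes stood where the neuronal markers stood. The largest exceptions were in the oligodendrocyte lineage. In oligodendrocytes the level of 7 members was 16.9% to 23.4% of that in all neurons, within the 16.5% to 30.9% of the 7 pan-neuronal markers, and that of the sparse Cntnap1 (34 UMIs) was 33.8%. Nrxn3 was 22.4% of the neuronal level. Nrxn2, in contrast, was 112% (100.4% to 118% by library): 92.9, 128, 106 and 105 CPM in WT1, WT2, HET1 and HET2 oligodendrocytes beside 91.0, 123, 106 and 89.0 CPM in neurons. Nuclei with a high doublet score held 36.0%, 4.90%, 15.8% and 11.8% of the Nrxn2 UMIs of oligodendrocytes in these libraries, and 70.2%, 10.4%, 45.8% and 68.1% of those of Nrxn3.

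The oligodendrocyte precursors, cells that divide and give rise to oligodendrocytes and receive synapses from neurons, held more Nxph1 than neurons as a whole did. Nxph1 stood at 2560.3 CPM in WT1, 2019 in WT2, 2452 in HET1 and 3035 in HET2, which is 427% of its level in all neurons, and all 4 libraries lay above the highest level in all neurons, 548 CPM. Inhibitory neurons alone stood at 1730.2 to 2309 CPM, and Lamp5, Sst and Pvalb interneurons at means of 3793, 3069 and 2852 CPM. After each nucleus was thinned to 1000 UMIs, 75.9% of precursors had a Nxph1 UMI (89.4% unthinned), against 9.66% of oligodendrocytes (16.9% unthinned). Nrxn2 was 204, 308, 303 and 423 CPM, 295% of the neuronal level. The 7 pan-neuronal markers reached 32.6% to 61.0% of the neuronal level in the same nuclei, and the other members 40.2% to 92.6%. Among the latter, Nrxn3 (73.9%, on 3083 UMIs) lay above every marker, also in each library (69.0%, 76.3%, 51.9% and 64.7%). Cntnap5c (92.6%) and Cntnap1 (72.0%) lay above them with libraries summed, but on 96 and 9 UMIs. Of these 161 nuclei 119 came from WT2 and only 7 from HET2, so no genotype test was made.

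In microglia the pan-neuronal markers stood at 21.5% to 37.7% of the neuronal level. Nrxn3 (23.2%), Nxph1 (28.0%), Cntnap2 (23.6%), Cntnap4 (30.1%), Cntnap5a (22.8%) and Cntnap5b (22.9%) lay in that range and Cntnap5c (14.6%) below it. Nrxn2 (54.4%) and Cntnap1 (70.6%) lay above it, but on 57 and 14 UMIs in all. The abundant members also held much the same shares as in neurons: Nrxn3 made up 51.1% of the 3003 member UMIs of microglia and 52.5% of those of neurons, Cntnap2 30.5% and 30.8%, and Nxph1 4.86% and 4.13%. The sparse ones did not: Nrxn2 made up 1.90% in microglia and 0.831% in neurons, Cntnap1 0.466% and 0.157%, and Cntnap5c 0.799% and 1.30%. In endothelial nuclei, with all libraries summed, the members stood at 54.6% to 75.9% of the neuronal level and the markers at 55.4% to 75.4%. In HET1 all members but Nrxn2 and Nrxn3 lay below the lowest marker (48.0%), with Nxph1 at 18.4%, Cntnap4 at 28.7% and Cntnap5c at 33.8%. In HET2 only Nxph1 (22.4%), Cntnap4 (20.5%) and Cntnap5c (9.99%) lay below the lowest marker (31.1%). In the WT libraries Nxph1, Cntnap4 and Cntnap5c stood at 62.5% to 93.6%. Summed over the endothelial libraries, Nrxn3 made up 51.3% of the member UMIs, Cntnap2 32.2%, Nxph1 4.08% and Cntnap5c 1.63%. By library, however, Nxph1 made up 4.03% and 5.72% of the member UMIs of WT endothelial nuclei but 1.74% and 2.01% in HET, while in neurons it made up 3.58% to 4.46% in each of the 4 libraries. In mural nuclei the members stood at 26.6% to 61.4% and the markers at 37.5% to 60.5%.

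**Figure D4:**
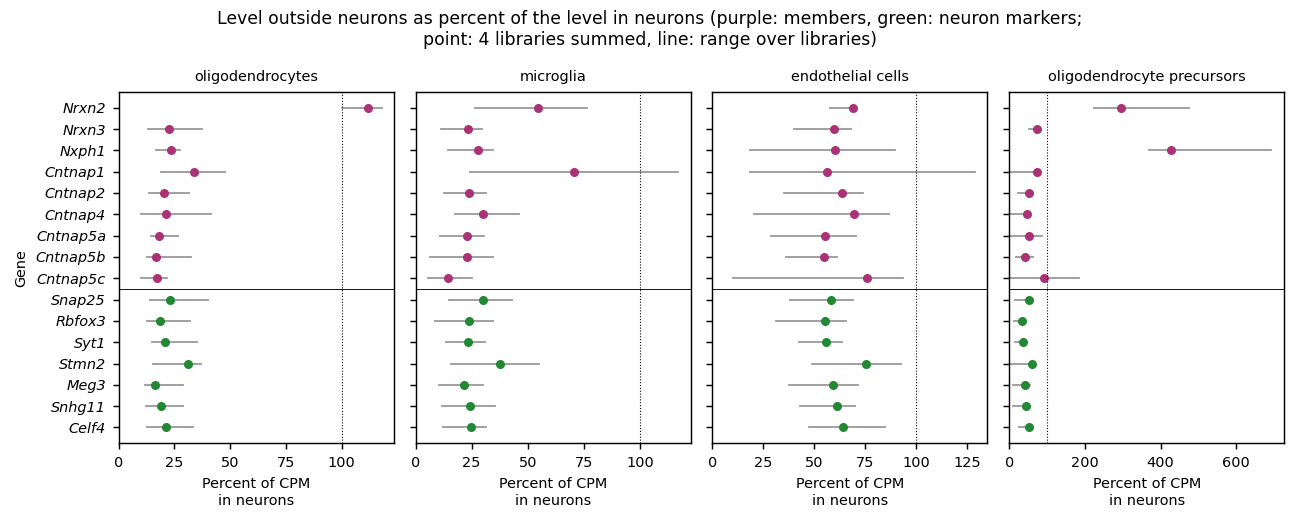
Level of each member (purple) and each pan-neuronal marker (green) outside neurons, as a percent of its CPM in all neurons; points are the 4 libraries summed, lines the range over libraries, and the dotted line marks 100%. To the right of every marker stand Nrxn2 (112%) and Cntnap1 (33.8%) in oligodendrocytes, and Cntnap1 (70.6%) and Nrxn2 (54.4%) in microglia. In endothelial nuclei Cntnap5c (75.9%) does so, and in precursors Nxph1 (427%), Nrxn2 (295%), Cntnap5c (92.6%), Nrxn3 (73.9%) and Cntnap1 (72.0%).

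The genotype contrast asks whether less Csf1r goes with other levels of these genes. In excitatory neurons none of the 9 members passed an adjusted p of 0.05 (edgeR quasi-likelihood test on UMIs summed per library, 2 against 2), nor did any of the 7641 genes tested (0%). None passed the unadjusted threshold, a p under 0.01 in the same test, which 0.288% of all genes did. The study used this cut-off with edgeR's likelihood-ratio test, in its own clusters and with more mice, so its calls are not like these. The neurexins hardly differed, Nrxn3 by 0.04 (SE 0.15) and Nrxn2 by -0.09 (SE 0.20) on the log2 scale. An unadjusted p under 0.05 was reached by 2 members here (1.79% of all genes), 0 in inhibitory neurons (1.81%), 2 in oligodendrocytes (2.81%) and 2 in microglia (10.8%), and in these 4 classes neither edgeR's likelihood-ratio test nor DESeq2 called a member (0 each). In 3 members both HET libraries lay below both WT libraries, as in 17.5% of all genes. Cntnap5c, at 107 and 70.3 CPM (WT) against 60.2 and 51.9 CPM (HET), was 1 of these, with a log2 fold change of -0.64 (SE 0.24, edgeR adjusted p = 1.0). Cntnap4, at 144 and 132 against 102 and 115 CPM, was another (-0.32, SE 0.12, edgeR adjusted p = 1.0), and Cntnap5a, at 617 and 567 against 535 and 543 CPM, the last (-0.10, SE 0.12).

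In inhibitory neurons no genotype difference was found. With libraries summed, the members stood highest there of the 5 classes tested, Cntnap5b only slightly (298 against 293 CPM in excitatory neurons). Log2 fold changes ran from -0.16 (Cntnap5b, SE 0.14) to 0.15 (Cntnap4, SE 0.16), 4 below 0 and 5 above. None of the 9 passed either threshold, which 0% (adjusted) and 0.0457% (unadjusted) of 6565 genes did. The WT and HET ranges of all 9 overlapped, with both HET libraries below both WT libraries in 13.6% of all genes. Nxph1 stood at 2309 and 1730.2 CPM (WT) against 2099.5 and 2015 CPM (HET), a log2 difference of 0.03 (SE 0.16).

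In oligodendrocytes 5 members had UMIs in enough nuclei (10% in either genotype) to be tested. All 5 stood lower in HET, as did 51.5% of all 3562 genes tested (medians -0.76 and -0.01). None passed the adjusted threshold (0% of all genes). Nxph1 alone passed the unadjusted one (0.112% of all genes): it stood at 113 and 151 CPM (WT) against 80.4 and 76.3 CPM (HET), with a log2 fold change of -0.80 (SE 0.20, edgeR adjusted p = 0.998). In Nxph1 and Cntnap5a both HET libraries lay below both WT libraries, as in 10.3% of all genes. Nrxn2 differed by -0.12 (SE 0.20). Beside these values, the pan-neuronal markers summed to 5662 and 3008 CPM (WT) against 2313 and 3569 CPM (HET) in oligodendrocytes, and 4 inhibitory neuron markers (Gad1, Gad2, Slc32a1 and Dlx6os1) to 52.9 and 60.9 against 46.0 and 46.7 CPM. The part of neuronal RNA in the member differences of oligodendrocytes was not tested beyond the subtraction given with the alternatives.

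In microglia 5 members could be tested, and again all 5 had values lower in HET, as did 45.7% of all 3083 genes (medians -0.89 and 0.03). None passed the adjusted threshold (0% of all genes) or the unadjusted one (3.11% of all genes). Nxph1 stood at 184 and 185 CPM (WT) against 70.0 and 128 CPM (HET) (-0.99, SE 0.32, edgeR adjusted p = 0.323). Nrxn3 stood at 1866 and 1836 against 686 and 1614 CPM (-0.76, SE 0.35). In Nrxn3, Nxph1 and Cntnap5a both HET libraries lay below both WT libraries, as in 16.9% of all genes. HET1 was the low library in each: without HET2, all 5 passed the adjusted threshold, from Cntnap2 at -1.27 to Cntnap5b at -2.47, as did 9.80% of all genes, whereas without HET1 no member did (0.389% of all genes). Cntnap5b reached the 10% detection filter only through WT nuclei (12.3% against 6.34%). The pan-neuronal markers of these nuclei summed to 5832 and 4933 CPM in WT, 2131 in HET1 and 4119 in HET2. Snap25, a presynaptic fusion protein used as a neuron marker, differed by -1.09 (SE 0.25, edgeR adjusted p = 0.247). In HET2, Cntnap2 (1116 CPM) lay above both WT libraries (944 and 1097 CPM) and Cntnap5b (83.8 CPM) above WT2 (73.9 CPM). Of the 253 Cntnap2 UMIs of HET2, however, 99 lay in 1 nucleus. The 5 nuclei of HET2 with a high doublet score held 49.8% of them, against 18.0% in WT1, 3.37% in WT2 and 24.4% in HET1. Without high doublet scores Cntnap2 differed by -1.11 (SE 0.27, edgeR adjusted p = 0.159). The part of neuronal RNA in the member differences of microglia was not tested beyond the subtraction given with the alternatives.

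**Figure D5:**
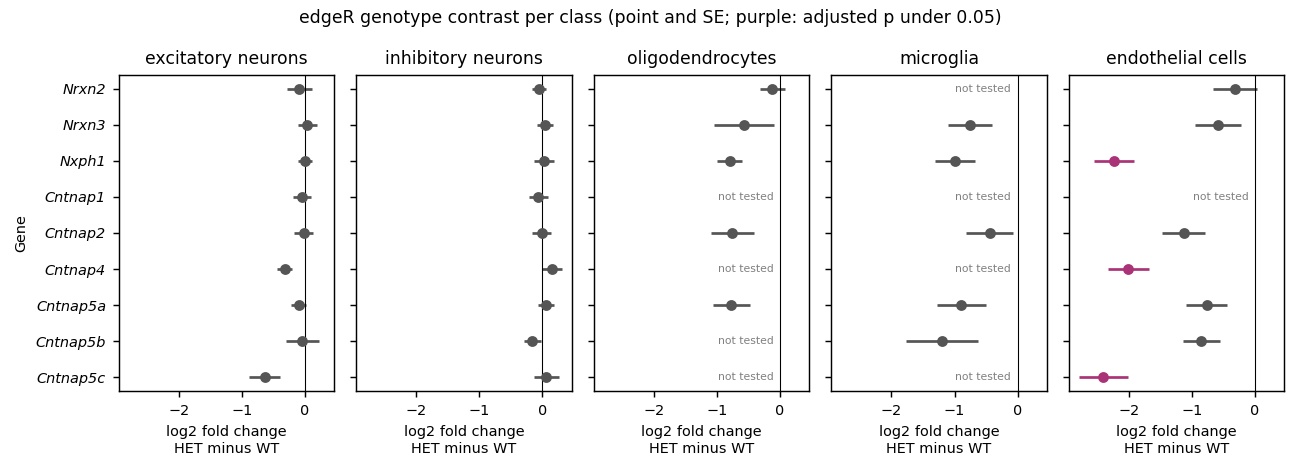
Log2 fold change (HET minus WT, edgeR) of each member in 5 classes of nuclei, with its standard error; purple marks an adjusted p under 0.05, and "not tested" marks genes under the detection filter. The 3 purple points, Nxph1 (-2.24), Cntnap4 (-2.01) and Cntnap5c (-2.41), all belong to endothelial nuclei.

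Endothelial nuclei showed the only member calls of the quasi-likelihood test. There edgeR's likelihood-ratio test and DESeq2 each called 4 members, the same 3 and Cntnap2 (adjusted p = 0.0175 by likelihood-ratio test and 0.0396 by DESeq2). The shares of all genes that these tools called are not set beside this count, so it has no background here. Nxph1 fell from 336 and 491 CPM in WT to 88.5 and 98.1 CPM in HET, a log2 fold change of -2.24 (SE 0.32, edgeR adjusted p = 0.00713). Cntnap4 fell from 187 and 155 CPM to 51.1 and 37.4 CPM (-2.01, SE 0.32, edgeR adjusted p = 0.0153), a fall known when the genes were chosen. Cntnap5c fell from 167 and 146 CPM to 44.3 and 14.0 CPM (-2.41, SE 0.39, edgeR adjusted p = 0.0153). These 3 of 8 members tested compare with 25 of 5385 genes, 0.464%. With Cntnap2, at 2970.4 and 2593 against 1287 and 1425 CPM (-1.13, SE 0.34, edgeR adjusted p = 0.264), 4 members passed the unadjusted threshold, as did 3.10% of all genes. All members tested but Nrxn2 had both HET libraries below both WT libraries, which held for 1076 of all 5385 genes (20%). Cntnap4 and Cntnap5c passed the detection filter only through WT nuclei (16.4% and 12.9%, against 7.23% and 4.82% of HET nuclei), and the HET values rest on 23 UMIs of Cntnap4 and 16 of Cntnap5c.

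The UMIs behind the endothelial calls lay in few nuclei, as did those of members not called. Of the 504 Nxph1 UMIs, 326 (64.7%) were in the 86 of 568 nuclei (15.1%) that also held a UMI of at least 1 of the 4 inhibitory neuron markers (Gad1, Gad2, Slc32a1 or Dlx6os1). For Cntnap5c this share was 55.2%, for Cntnap4 41.9% and for Nrxn3 38.4%. Such nuclei made up 13.0% and 30.8% of WT and 7.41% and 8.24% of HET endothelial nuclei. The inhibitory markers themselves summed to 117 and 211 CPM (WT) against 20.4 and 70.1 CPM (HET) in endothelial nuclei, with none of the 4 at 0, the pan-neuronal markers to 11040.5 and 12316 against 9908 and 7409 CPM, and the 8 endothelial markers to 7484 and 5653 against 9333 and 11753 CPM. Their part in the member differences was not tested. Gad2, which makes GABA, differed by -2.19 (SE 0.60, edgeR adjusted p = 0.215). Without the nuclei that held an inhibitory marker UMI no member was called: Nxph1 differed by -1.37 (edgeR adjusted p = 0.385) and Cntnap4 by -1.66 (adjusted p = 0.121), and Cntnap5c was under the detection filter. Nuclei with a high doublet score, 118 of the 568, held 58.7% of the Nxph1, 70.5% of the Cntnap4 and 69.2% of the Cntnap5c UMIs. For members not called this share was 62.7% (Nrxn3) to 72.7% (Cntnap5b). The share of all endothelial UMIs in either group of nuclei was not counted. Without high doublet scores no member was called either (Nxph1 -1.93, edgeR adjusted p = 0.877, with Cntnap4 and Cntnap5c under the detection filter). Without HET2 the adjusted p-values were 0.0599 for Nxph1 (-2.25), 0.154 for Cntnap4 (-1.79) and 0.136 for Cntnap5c (-1.86).

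The endothelial contrast was also set against that of neurons from the same libraries, since a call in 1 class and none in another is no difference. In this test of the class by genotype interaction no member passed an adjusted p of 0.05 (0.00707% of all tests over the 4 pairs of classes did). The likelihood-ratio test called 6 of the member tests, but its share over all tests was not counted, so this number has no background beside it. An unadjusted p under 0.05 was found in 12 of 26 member tests and 10.2% of all tests, and one under 0.01 in 6 of the 26 and 2.31% of all tests. These tests are not independent, since the same endothelial or microglial sums were set against both classes of neurons. The 6 are Nxph1, Cntnap4 and Cntnap5c in endothelial nuclei, each counted against inhibitory and against excitatory neurons. Of these genes, Cntnap4 and Cntnap5c passed the endothelial detection filter only through WT nuclei. Nxph1 came nearest, with a log2 difference of -2.09 between endothelial nuclei and excitatory neurons (SE 0.28, edgeR adjusted p = 0.0698) and -2.15 against inhibitory neurons (SE 0.45, edgeR adjusted p = 0.325). For Cntnap4 the difference was -2.05 against inhibitory neurons (SE 0.34, edgeR adjusted p = 0.200), and for Cntnap5c -2.31 (SE 0.51, edgeR adjusted p = 0.325). In microglia the largest difference from inhibitory neurons was -1.08 (Nxph1, SE 0.43, edgeR adjusted p = 0.482).

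A class sum mixes subtypes that differ up to 157-fold in a member, so the contrast was repeated within each of the 17 subtypes. Of 153 combinations of member and subtype 145 could be tested, and none passed the adjusted threshold (0.00484% of all tests), while 14 had an unadjusted p under 0.05 (3.51% of all tests). DESeq2 called 0 and the likelihood-ratio test called 1, and the shares of these 2 tools over all tests were not counted. The unadjusted threshold was passed by 5 (0.682% of all tests), and 4 of them were Nxph1 in cells where it is low. In dentate granule neurons Nxph1 stood at 109 and 81.1 CPM (WT) against 24.5 and 12.1 CPM (HET) (-2.31, SE 0.47, edgeR adjusted p = 0.998), on 67, 32, 6 and 2 UMIs. In Vip interneurons it stood at 441 and 265 against 195 and 208 CPM (-0.82, SE 0.21, edgeR adjusted p = 0.316). In upper layer neurons it stood at 28.1 and 36.4 against 16.8 and 15.5 CPM (-0.95, SE 0.18, edgeR adjusted p = 1.0), and in CA1 neurons, where genotypes overlapped, at 40.0 and 131 against 42.8 and 14.2 CPM (-1.36, SE 0.45). The inhibitory markers summed to 78.0 and 60.8 against 73.6 and 42.3 CPM in dentate granule neurons, to 1164 and 1080.0 against 1194 and 1104 CPM in Vip interneurons, to 6.78 and 15.1 against 4.74 and 4.99 CPM in upper layer neurons and to 14.8 and 36.8 against 11.5 and 14.2 CPM in CA1 neurons. The last of the 5 was Cntnap5a in Meis2 neurons, at 229.9 and 168 against 111 and 130.4 CPM (-0.71, SE 0.19, edgeR adjusted p = 0.943). In the 7 subtypes with most Nxph1 its log2 differences ran from -0.16 in Pvalb interneurons (SE 0.14) to 0.28 in layer 5 near-projecting neurons (SE 0.15), where it stood at 1586 and 1571 against 1774 and 2050.4 CPM. Over all 17 subtypes the median log2 difference was -0.06 for Nxph1, 0.01 for Nrxn3 and 0.02 for Cntnap2.

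A list of 31 partner genes held neurexin ligands and partners, cytoplasmic partners, contactin and juxtaparanodal partners of CNTNAP proteins, and the family member Cntnap3. None of them passed the adjusted threshold in any of the 5 classes. Unadjusted p-values under 0.05 were found for 3 of them in microglia (10.8% of all genes), 3 in endothelial nuclei (13.3%) and 0 in the other classes, and neither the likelihood-ratio test nor DESeq2 called any (0 each). In excitatory neurons 23 were tested (9 below 0, median 0.05, with 50.3% of all genes below 0). In inhibitory neurons 21 were tested (11 below 0, median -0.01, with 48.8% of all genes below 0). There the lowest were Car11, a catalytically inactive carbonic anhydrase-related protein (-0.35, SE 0.27), the secreted synaptic protein Lgi1 (-0.20, SE 0.12) and the potassium channel Kcna2 (-0.17, SE 0.12), and the highest Kcna1 (0.34, SE 0.17), the postsynaptic neurexin ligand Lrrtm1 (0.10, SE 0.22) and the scaffold Cask (0.07, SE 0.10). In oligodendrocytes 12 were tested, 6 on each side of 0. In microglia, where 45.7% of all genes lay below 0, 9 were tested. All 6 neurexin ligands and contactin partners among them had values below 0. Lrrtm4 (-1.28, SE 0.35, edgeR adjusted p = 0.295), Lrrtm3 (-1.01, SE 0.53) and Cntn1 (-0.82, SE 0.30) were the lowest. The 3 cytoplasmic partners Epb41l3 (0.44, SE 0.41), Cask (0.36, SE 0.23) and Apba1 (0.24, SE 0.28) were above 0. Lrrtm4 was the only partner gene past the unadjusted threshold in any class. In endothelial nuclei 12 of 13 had values below 0 (median -0.45), as did 49.8% of all genes (median 0.00). Lrrtm4 (-0.98, SE 0.35), Lrrtm3 (-0.79, SE 0.36) and Lgi1 (-0.66, SE 0.33) were lowest. Dag1, which encodes dystroglycan (0.17, SE 0.31), Car10 (-0.08, SE 0.34) and Nlgn1 (-0.25, SE 0.37) were highest.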

How the data were processed

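Nuclei of 4 mouse brains (2 WT, 2 HET; the paper counts more mice per genotype, and the others were not analysed here) had been sequenced on the 10x Genomics platform, and the authors deposited 1 matrix of UMI counts per library, per the labels made with Cell Ranger on mm10; the counts are raw, and whether introns or strand entered the counting is not given in the sources used here. The filters kept barcodes holding 500 to 50000 UMIs and over 200 genes, of which less than 5% of UMIs were mitochondrial. Libraries held 89436507 to 112226479 UMIs and no pair was duplicated (chi-square per degree of freedom 34.8 to 93.2). Clustering (scanpy 1.11.5, 3000 variable genes, 30 components, Leiden resolution 1) left out the 9 genes and their partner genes, except Car10 and Car11, which the matrices list under these names. Names came from marker lists, but the naming thresholds and a subdivision of mixed clusters were set after the clusters were seen, and 6 clusters stayed unnamed. Doublets were scored with Scrublet and kept, with the 7.60% to 12.7% of nuclei of highest score per library left out in an alternative. The UMIs of a class were added up within each library, and these sums were tested with edgeR 4.0.16 (quasi-likelihood, TMM, two-sided; R 4.3.3) over all genes with at least 10 UMIs and a UMI in 10% of nuclei of either genotype, with Benjamini-Hochberg adjustment. The tests were also run on simulated counts with the same fixed dispersion for every gene and class. That dispersion was not fitted to these libraries, so the run gives no error rate for them. An exact permutation test of 2 against 2 cannot go below p = 0.333 and was not used. CPM are UMIs per 1000000 UMIs of the class in a library, comparable for 1 gene between classes but not between genes. Counting error limits sparse values: 18 UMIs of Cntnap1 in endothelial nuclei, for example, are too few for a comparison.

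The members, partner genes and marker lists were chosen with earlier results of these data known. All 9 members are named, as are partner genes past a threshold or among the 3 highest and 3 lowest in inhibitory neurons, microglia and endothelial nuclei, and the 3 genes closest to each member in pattern. Alternatives were DESeq2 1.42.0, edgeR's likelihood-ratio test, other scaling, no detection filter, at least 1000 UMIs, no high doublet scores, resolution 0.5, subtraction of free RNA, a replicate block and leaving out each library; leaving out nuclei with an inhibitory marker UMI was added after the data were seen. Of the inhibitory neuron markers, 4 are used for levels, and 1 item is not reported here. Astrocytes were not analysed here, for want of a named cluster.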

Additional observations from a re-analysis of the deposited data

How the results depend on the processing

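With 2 libraries per genotype, a p-value sets a difference against a spread estimated from 2 mice each and moderated over all genes tested. Leaving out a library leaves 1 that is assumed to vary like the others. Of 750 single values under an alternative, 700 kept their direction and side of the threshold or were within 1 standard error of 0 (30 of these changed sign), 29 gained a call, 9 lost one and 12 reversed. The pan-neuronal marker level of glia and vessels differs by library, and its part in the changes below was not tested.

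The 3 member calls in endothelial nuclei became 0 without nuclei of high doublet score, 0 after subtraction of free RNA and 0 without nuclei holding an inhibitory marker UMI, and ranged from 0 to 3 when libraries were left out (0 without HET replicate 2). Over all genes the 25 endothelial calls became 73 by likelihood-ratio test, 41 without the detection filter, 0 without high doublet scores, 0 after subtraction, 2 without inhibitory marker nuclei and 6 to 65 without a library. The likelihood-ratio test and DESeq2 each called 4 members, the same 3 and Cntnap2. The number of all genes called by DESeq2 is not given here, so its member count has no background beside it. After subtraction the log2 fold changes of Nxph1, Cntnap4 and Cntnap5c were -7.84, -6.87 and -7.29, with standard errors of 2.78, 1.87 and 1.34. The subtraction set a count to 0 where the estimated free RNA exceeded it, as it did for these 3 genes in both HET libraries. These folds thus set WT remainders against 0 and do not give the size of a fall. In microglia member calls ranged from 0 to 5 without a library (5 without HET replicate 2), and the 0 calls over all genes became 56 by likelihood-ratio test, 2 by DESeq2, 1 after subtraction and 12 to 302 without a library. Over all genes, the 0 calls in excitatory neurons became 6 by likelihood-ratio test, 8 by DESeq2 and 0 to 10 without a library, those in inhibitory neurons 0 to 105 and those in oligodendrocytes 0 to 80 (80 and 105 without WT replicate 1).

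Reversed log2 fold changes, all without a call, were after subtraction of free RNA Cntnap2 (0.55) and Cntnap5a (5.73) in oligodendrocytes, Nxph1 (0.18) and Cntnap2 (2.22) in microglia, and Nrxn3 (2.99) and Cntnap5a (3.47) in endothelial nuclei. At resolution 0.5 they were Cntnap2 (0.14) and Cntnap5b (0.16) in microglia. The microglia cluster of that setting was a mixed one of 1142 nuclei, against 697 in the main setting. Beside all 9 microglia markers it carried 7 pan-neuronal and 5 oligodendrocyte markers, and 29.8% of its nuclei had a high doublet score. These values are thus not those of the same nuclei. Without a library, Cntnap5b in inhibitory neurons ran from -0.33 to 0.04 (reversed without WT replicate 1), Cntnap2 in microglia from -1.27 to 0.06, the difference of Cntnap2 in microglia against inhibitory neurons from -1.21 to 0.05 and that of Cntnap2 in microglia against excitatory neurons from -1.29 to 0.11 (all 3 reversed without HET replicate 1).

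Within subtypes the 0 member calls became 1 by likelihood-ratio test (Nxph1 in dentate granule neurons) and 0 to 3 without a library: Nxph1 in CA1 neurons without WT replicate 1 (-2.09) or HET replicate 1 (-2.38), in dentate granule neurons without WT replicate 2 (-2.52) or HET replicate 1 (-2.99) and in Vip interneurons without WT replicate 2 (-1.15), and Cntnap4 in layer 5 neurons without WT replicate 2 (-1.19). The labels number the replicates of each genotype but do not say that a number is shared, and same-numbered libraries did not deviate together (correlations -0.39 to 0.00 over 5 classes); with the replicate number as a replicate block, 1 member was called within 2 subtypes (Nxph1 in dentate granule and CA1 neurons), and 0, 0, 0, 0 and 3 in excitatory neurons, inhibitory neurons, oligodendrocytes, microglia and endothelial nuclei. Differences between classes became 6 member calls by likelihood-ratio test and 1 without the detection filter, and the shares over all tests were not counted for these settings. Nor were they counted for the calls within subtypes with a replicate block or with a library left out. The share of all genes called in endothelial nuclei with the replicate block is not given here. Of 45 class levels, 6 moved by more than 1 SD without high doublet scores and 8 at resolution 0.5, and of subtype levels 11 of 153 and 14 of 99.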
